A study of Mus musculus with 391 samples.

Results

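Interferon-stimulated genes are the genes that cells switch on when an interferon binds its receptor. A set of 39 of them, out of the 56941 genes of the count table, was followed in single cells of adult mouse brain. The 39 genes were picked by name from general knowledge of the interferon response, with earlier results of these data known. All 39 were found in the table under their symbols. They comprise 5 transcription factors, 3 Ifit and 3 Ifitm proteins, Isg15 and its protease, 7 sensors and enzymes that act on nucleic acids or nucleotides, 5 large GTPases, 6 other membrane and mitochondrial effectors, 3 proteins of ADP-ribosylation, 2 HIN200 proteins and 3 Trim or Slfn proteins.

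The cells came from dissociated vascular fragments of brain and were sequenced one by one with Smart-seq2, a full-length method without molecular identifiers. Of 391 cells, 280 carry the label microglia, the resident macrophages of brain, and 111 the label endothelial, the cells that line blood vessels. The authors' codes for them are MG and CP-EC, and the class names below mean these labels only. The labels name no strain, sex, treatment or exact age, and no animal, so each class counts as 1 sample. No difference between the classes can therefore be tested, and intervals given below cover counting error only, which does not include the spread between animals or duplicate reads from amplification.

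Interferons of type I (alpha and beta) signal through a receptor of Ifnar1 and Ifnar2 and the kinases Jak1 and Tyk2 to a complex that includes Stat2 and Irf9 and binds a promoter element called the ISRE. Interferon gamma acts through a receptor of Ifngr1 and Ifngr2 and on a different element, the GAS. The products block viral entry, translation and replication, sense foreign nucleic acid or damp the response, and many are also held at a low tonic level in healthy tissue.

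The promoters show the elements by which such genes are recognised. RefSeq promoter windows of build GRCm38.p6, from 250 bases before the start to 50 after it, were given for 30 of the 39 members; Usp18, Mx1, Mx2, Rtp4, Ifi27, Ifi27l2a, Parp9, Parp14 and Ifi204 had none. The ISRE core was searched as GAAANNGAAA and, for the other strand, TTTCNNTTTC, and the GAS as TTCNNNGAA, which reads the same on both strands; matches of either motif may overlap. The ISRE core was found in 18 of 30 members (60.0%), against 3.99% of the 27025 genes with a window, and more than 1 core in the same window in 7 of 30 (23.3%), against 0.266%. Trim30a has 2 windows with 1 core each and is not among the 7. The GAS was found in 10 of 30 members (33.3%), against 9.55% of all genes. Since the list was drawn from known interferon targets, these shares describe it and are no independent evidence.

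Below are the 160 bases before the start, in the direction of transcription, of 5 strongly inducible members with a core, with the matches in capitals; they are shown because levels of these genes within the microglia are described further on. They are Ifit1 (chr19:34640729-34640888, plus strand), Ifit3 (chr19:34583369-34583528, plus), Isg15 (chr4:156200819-156200978, minus), Rsad2 (chr12:26456453-26456612, minus) and Oas1a (chr5:120907526-120907685, minus).
Ifit1: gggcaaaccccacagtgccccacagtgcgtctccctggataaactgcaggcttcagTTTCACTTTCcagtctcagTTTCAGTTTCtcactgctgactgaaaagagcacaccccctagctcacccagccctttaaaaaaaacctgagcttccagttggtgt
Ifit3: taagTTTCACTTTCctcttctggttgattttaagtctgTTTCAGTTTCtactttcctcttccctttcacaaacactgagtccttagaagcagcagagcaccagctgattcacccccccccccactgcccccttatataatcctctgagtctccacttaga
Isg15: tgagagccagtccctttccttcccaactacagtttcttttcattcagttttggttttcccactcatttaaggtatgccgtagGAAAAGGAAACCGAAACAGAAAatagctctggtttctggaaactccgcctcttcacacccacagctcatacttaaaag
Rsad2: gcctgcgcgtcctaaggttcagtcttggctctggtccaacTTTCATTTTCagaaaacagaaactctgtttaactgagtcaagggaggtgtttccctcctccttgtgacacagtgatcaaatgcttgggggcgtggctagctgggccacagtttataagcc
Oas1a: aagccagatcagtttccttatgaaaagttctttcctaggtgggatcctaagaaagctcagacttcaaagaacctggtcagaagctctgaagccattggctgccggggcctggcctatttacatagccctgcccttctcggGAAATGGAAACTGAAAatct

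Counted so that −1 is the base just before the start, Ifit1 holds cores at −104 to −95 and −85 to −76 and Ifit3 at −156 to −147 and −122 to −113. In Isg15, 3 overlapping cores run together from −78 to −57, and in Oas1a 2 overlapping cores lie close to the start, from −20 to −5. Rsad2 holds 1 core, at −120 to −111. The windows of Ifit2, Irf7, Oasl2 and Ifi44 hold no match of the core, which says only that these letters are absent there.

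Total gene reads per cell ranged from 39876 to 504875 in microglia (median 146506) and from 83954 to 602175 in endothelial cells (median 174345). Cells came from 4 plates, called A to D here and read from the column names: A and B hold both classes, with only 7 and 10 endothelial cells, and C and D endothelial cells alone. The summed markers, in CPM (counts per 1e6 gene reads of the cell), went with the class labels. The 14 microglia markers had a median of 27934 CPM in microglia and 32.0 in endothelial cells, and 13 endothelial markers 105 and 27896. For 6 markers of fenestrated endothelium the median was 0 CPM in microglia and 21458 in endothelial cells. The microglia class was not uniform: 12 summed markers of border-associated macrophages ranged from 28.1 to 32295 CPM over its cells. Their median was 7973 CPM, so high levels were not limited to a few cells. No 2 cells had identical counts.

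The set as a whole did not separate the classes. On reads summed over each class and scaled to CPM, all 39 members reached 1 CPM in at least 1 class, with 7 at least 4-fold higher in microglia (17.9%, against 19.9% of 14989 genes), 3 at least 4-fold higher in endothelial cells (7.69%, against 11.7%) and 29 between. The median log2 ratio of microglia to endothelial cells, with 1 CPM added to each level, was 0.16 over members and 0.36 over all genes. The members higher in microglia were Mx1, Ifi27l2a, Ifi207, Oas1a, Ifi204, Mx2 and Eif2ak2, and those higher in endothelial cells Gbp2, Ifi44 and Rsad2. Both shares lie below those of all genes, so neither direction was more frequent among members than in the table as a whole.

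Within plate A, 16 of 39 members were higher in microglia (background 46.5%) and 2 in endothelial cells (background 10.9%); within plate B the counts were 17 of 38 (background 48.4%) and 4 (background 11.5%). With 7 and 10 endothelial cells, many genes of that class have few reads or none in these plates, and the median log2 ratio rose for members (1.05 and 1.23) as it did for all genes (1.73 and 1.87). The 7 members higher in microglia had positive log2 ratios in both plates. Of the other 3, Rsad2 was lower in microglia in both plates (−2.68 and −2.73), Gbp2 as well (−2.71 and −1.14), while Ifi44 turned from −2.41 overall to 4.79 in plate A and −0.70 in plate B. The plate A value of Ifi44 rests on 1 cell, which held 93.8% of its microglial reads, and on an endothelial level of 0 there.

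**Figure D1:**
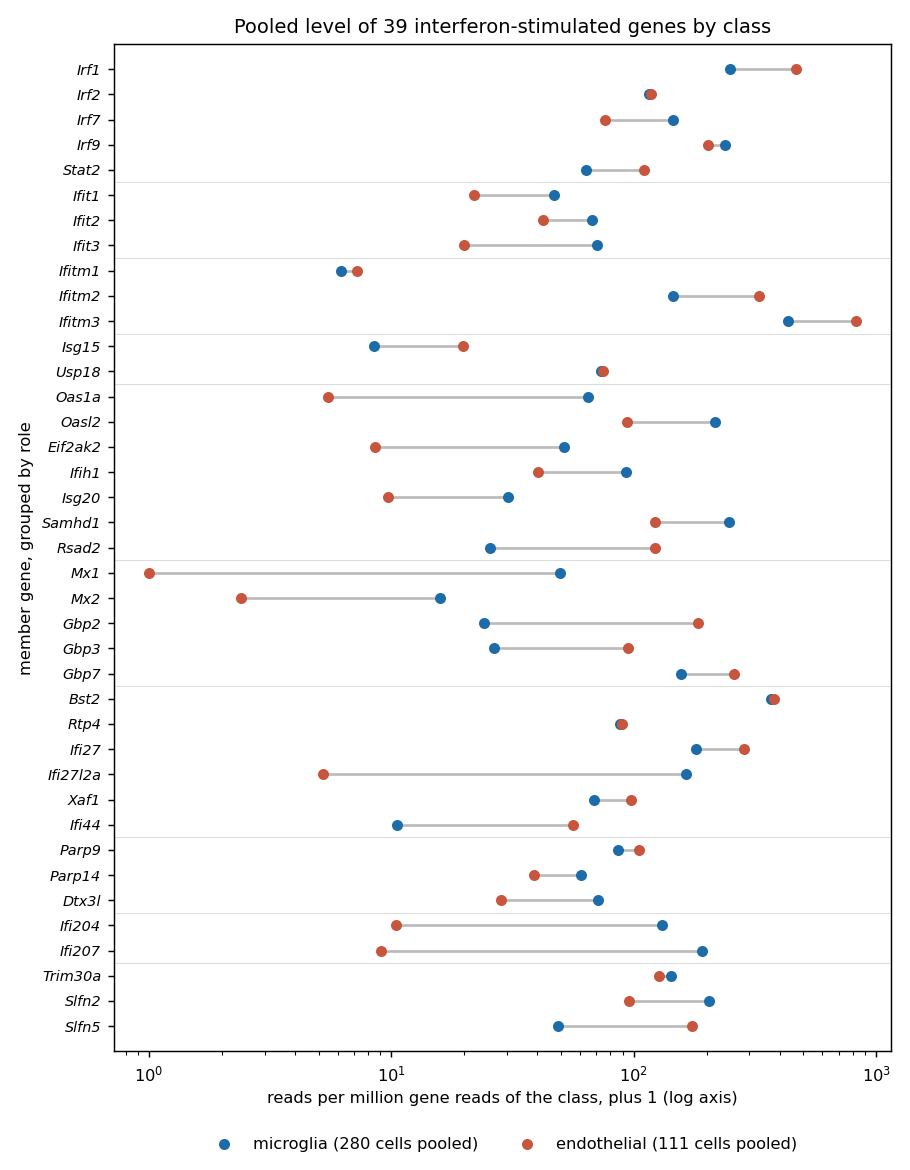
Level of each of the 39 members in CPM of the class plus 1 (horizontal log axis), for 280 microglia and 111 endothelial cells pooled; grey lines join the classes. Ifi27l2a, Ifi204, Ifi207, Oas1a and Mx1 lie far to the microglia side and Gbp2, Rsad2 and Ifi44 to the endothelial side, while Bst2, Rtp4, Usp18 and Irf2 nearly coincide.

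The 5 transcription factors were read in both classes and none differed 4-fold. Irf1, an early activator of interferon and MHC class I genes, stood at 248 CPM in microglia and 468 in endothelial cells and was read in 52.1% and 74.8% of cells. Irf9, the DNA-binding part of the type I complex, stood at 237 and 200.5 CPM, and its partner Stat2 at 62.5 and 109.5. Irf7, the factor that amplifies interferon alpha production, stood at 144 and 75.2 CPM, and Irf2, an antagonist of Irf1, at 114 and 117. The order of Irf7 was not stable across plates: it was 90.9 CPM in microglia of plate A and 231 in the 7 endothelial cells there, against 173 and 25.5 CPM in plate B. Nearly all endothelial reads of Irf7 in plate A came from 1 cell, in well H1, at 1622 CPM.

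The Ifitm proteins sit in cell membranes and hinder the entry of enveloped viruses. Ifitm3 was the member with the highest level per kilobase of exon in both classes, at 638 CPM per kb in microglia and 1212 in endothelial cells. It was read in 243 of 280 microglia, with a cell median of 229.8 CPM and a highest cell of 3248, and in 110 of 111 endothelial cells, with a median of 813 and a highest cell of 1781. Pooled levels were 433 CPM (95% interval 427 to 439) and 822 CPM (809 to 834), 1.90 times higher in endothelial cells (1.86 to 1.94).

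Ifitm2 followed the same order, at 144 and 326 CPM (2.27 times, 2.20 to 2.35), and was read in 69.6% of microglia and 96.4% of endothelial cells. In each plate that holds both classes the endothelial level of both genes was the higher one: for Ifitm3 857 against 476 CPM in plate A and 675 against 409 in plate B, and for Ifitm2 328 against 155 and 405 against 137. Individual cells of the classes overlapped widely. Ifitm1, the third member of the family, stood at 5.22 and 6.23 CPM and was read in 26 microglia and 13 endothelial cells, and 88.7% of its endothelial reads came from 1 cell.

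Other membrane and mitochondrial proteins of the set ranged from broadly read to narrow. Bst2 (tetherin), which holds budding virus at the cell surface, stood at 368 CPM in microglia and 379 in endothelial cells and was read in 72.1% and 79.3% of cells. Ifi27, a mitochondrial protein, stood at 179 and 284 CPM and was read in 63.6% and 69.4%. Its relative Ifi27l2a was by contrast close to restricted to microglia, at 163 CPM against 4.21, a ratio of 38.7 (31.4 to 48.2). It was read in 166 of 280 microglia, with a cell median of 22.9 CPM, and in 3 of 111 endothelial cells, where 1 cell held 97.8% of the 90 reads. Rtp4, a chaperone of receptor transport, was at 86.5 and 88.4 CPM, and Xaf1, an antagonist of apoptosis inhibitors, at 67.5 and 96.6.

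HIN200 proteins bind DNA in the nucleus and cytosol. The 2 in the set made up the one group in which all members were at least 4-fold higher in microglia. Ifi207 stood at 189.6 CPM in microglia and 8.05 in endothelial cells (ratio 23.5, 20.2 to 27.5) and was read in 165 of 280 and 5 of 111 cells. Ifi204 stood at 130.1 and 9.41 CPM (ratio 13.8, 12.0 to 16.0) and was read in 114 and 10 cells. The 2 genes belong to a cluster of close copies, so reads may be split or shared between them. Relatives outside the set did not all go the same way. In microglia and endothelial cells Ifi209 stood at 60.5 and 0 CPM, Ifi203 at 112 and 101 and Mndal at 77.6 and 93.1. Ifi208 was higher in endothelial cells, at 9.85 and 48.2 CPM.

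Among the genes that sense or degrade nucleic acids, Samhd1, which depletes the nucleotides that viruses need, stood at 245 CPM in microglia and 121 in endothelial cells. Oas1a, which makes the signal that activates RNase L, stood at 64.0 and 4.49 CPM (ratio 14.2, 11.6 to 17.6) and was read in 73 of 280 and 4 of 111 cells; it too has near-identical neighbours. Eif2ak2, the kinase PKR that halts translation, stood at 50.5 and 7.58 CPM (ratio 6.66, 5.68 to 7.86). Oasl2 was at 216 and 93.1 CPM, Ifih1, the RNA sensor MDA5, at 91.6 and 39.3, and the exonuclease Isg20 at 29.3 and 8.66. Rsad2 (viperin), which makes a chain-terminating nucleotide, ran the other way, at 24.4 CPM in microglia and 121 in endothelial cells (4.94 times, 4.61 to 5.30), and was read in 10.0% and 33.3% of cells.

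The large GTPases split by family. Mx1 and Mx2, which trap viral nucleoprotein complexes, were read mainly in microglia: Mx1 at 48.8 CPM in 42 cells and with 0 reads in all 111 endothelial cells. A count of 0 allows a share of cells with a read of up to 2.70% (3 of 111; exact upper limit 3.27%), and says nothing on cells whose transcripts were not caught. With the endothelial class set to a floor of 3 reads (0.140 CPM), the ratio of microglia to endothelial cells for Mx1 was 348. The exact upper limit of the endothelial level was 0.173 CPM, which gives a smaller ratio, so 348 is no strict minimum. Mx2 had 710 reads (14.9 CPM) in microglia and 30 reads in endothelial cells (CPM ratio 10.6, 7.39 to 15.9). The guanylate-binding proteins, which coat vacuoles of intracellular pathogens, were higher in endothelial cells when pooled: Gbp2 at 23.2 and 183 CPM (7.89 times, 7.38 to 8.45), Gbp3 at 25.6 and 93.4 (3.64 times) and Gbp7 at 156 and 258 (1.65 times). Within plate A, however, Gbp3 was at 40.8 CPM in microglia and 12.5 in endothelial cells, and within plate B Gbp7 was at 155 and 21.7.

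The Ifit proteins, which bind foreign RNA and block its translation, were at 45.7 CPM in microglia and 20.9 in endothelial cells for Ifit1, 66.0 and 41.2 for Ifit2, and 69.3 and 18.9 for Ifit3. Isg15, a ubiquitin-like modifier, stood at 7.49 and 18.7 CPM, and its protease Usp18, which also damps the receptor, was at 71.9 and 73.7. Ifi44 stood at 9.54 and 55.1 CPM (5.78 times higher in endothelial cells, 5.19 to 6.46). Parp9 and its partner Dtx3l, which modify histones and viral proteins, were at 84.8 and 104 and at 70.0 and 27.3 CPM, and Parp14 at 59.8 and 37.7. Trim30a, a brake on inflammatory signalling, stood at 141 and 126 CPM, and the Schlafen genes Slfn2 and Slfn5, named for their role in lymphocyte growth, at 203 and 94.7 and at 47.8 and 172.

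Pooled levels hide how unevenly the reads were spread over cells. For each gene the fewest cells that together hold 50% of its reads were counted, and the reads were called concentrated where these were 5% of the cells or fewer (14 microglia or 5 endothelial cells). By that measure 28 of 39 members were concentrated in microglia (71.8%, against 88.2% of 13599 genes at 1 CPM or more) and 23 of 38 in endothelial cells (60.5%, against 77.2% of 11450). Members were thus no more often concentrated than other genes. At similar CPM the shares were near those of all genes: of members at 10 to 100 CPM, 20 of 20 in microglia and 13 of 15 in endothelial cells were concentrated, against 97.0% and 91.0% of all genes, and over 100 CPM 5 of 16 and 2 of 15, against 46.4% and 17.8%.

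Members with similar numbers of reads nevertheless ranged widely. In microglia Ifitm2 had 6824 reads and Irf7 6858, yet 50% of the reads took 39 cells for Ifitm2 and 7 for Irf7. At the broad end were Ifitm3 (41 microglia and 30 endothelial cells), Ifitm2 (39 and 31), Bst2 (32 and 20) and, in microglia, Ifi27l2a (28). At the narrow end in microglia were Ifi44 and Ifitm1 with 1 cell each and Ifit1, Ifit2, Isg15 and Mx2 with 2. A single cell held 93.8% of the microglial reads of Ifi44, 44.4% of those of Isg15, 37.4% of Ifit2 and 37.1% of Ifit1.

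**Figure D2:**
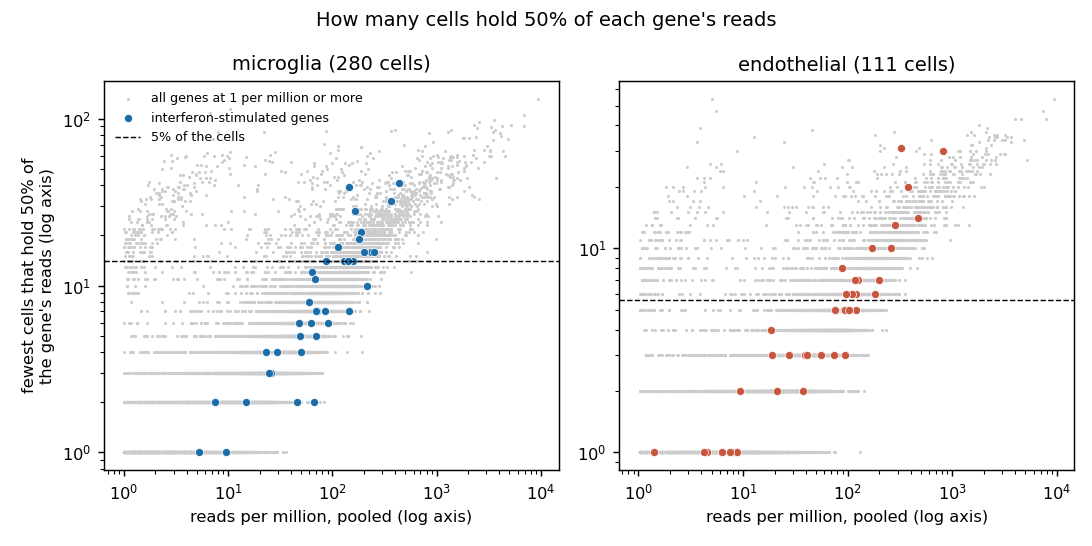
Fewest cells that together hold 50% of a gene's reads (vertical log axis) against its pooled level in CPM (horizontal log axis), for microglia and endothelial cells; grey points are all genes at 1 CPM or more, coloured points the members, and the dashed line marks 5% of the cells. Most members lie within the cloud of genes of their level. Ifitm3, Ifitm2 and Bst2 are the highest members in microglia, with 41, 39 and 32 cells. Other genes such as Ptma (129 CPM, 46 cells) and Eef1b2 (346 CPM, 40 cells) lie above Ifitm2 and Bst2 at similar levels.

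A module score was taken per cell as the mean over the 39 members of log2(CPM of the cell + 1). Its median was 1.82 in microglia (lowest 0.34, highest 7.91) and 2.00 in endothelial cells (0.72 to 5.41), so that the classes overlapped over nearly their whole range. Of microglia, 95% scored below 3.88, and of endothelial cells below 3.69. In microglia the median was 2.09 in plate A and 1.70 in plate B, a gap larger than that between the classes. In endothelial cells it was 1.92, 2.14, 2.01 and 1.96 in plates A to D. The endothelial median was lower than the microglial one in plate A and higher in plate B.

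**Figure D3:**
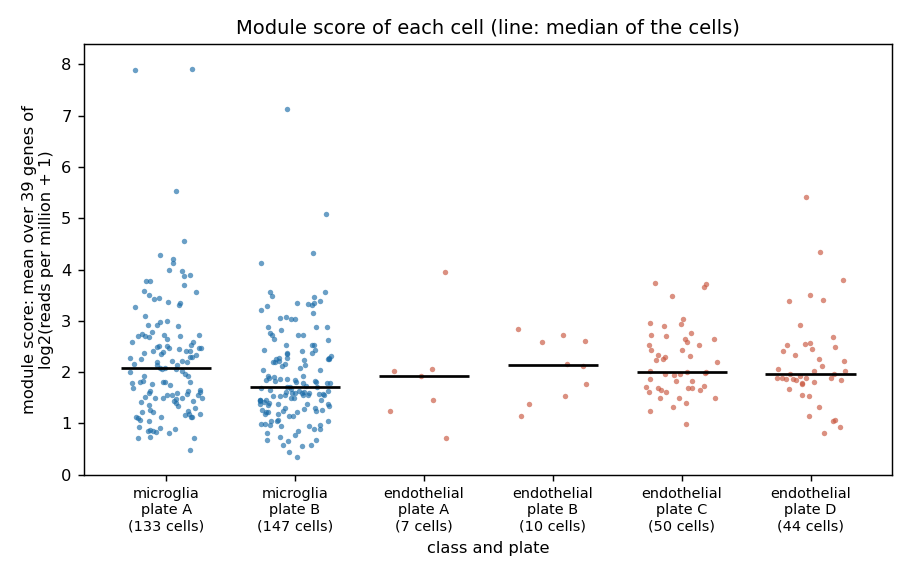
Module score of each cell (vertical axis, mean of log2(CPM + 1) over 39 members) by class and plate; each point is 1 cell and each line the median. The medians lie between 1.70 and 2.14, and 3 microglia stand above 7, with a highest score of 7.91.

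Taken in pairs, single member genes were weakly related from cell to cell. The median Spearman correlation over pairs of members was 0.07 in 280 microglia and 0.04 in 111 endothelial cells, and the highest were 0.42 for Ifi204 with Ifi207 and 0.38 for Ifitm2 with Ifitm3 in microglia, both pairs of close relatives, and 0.36 for Oasl2 with Slfn5 in endothelial cells. In counts this sparse such weak values are no finding. The module score correlated with the number of genes with a read at 0.23 and 0.32 and with total reads at 0.12 and 0.21, and with a score of immediate early genes, which tissue dissociation can induce, at −0.10 and 0.06. Their part in the scores was not tested. Outside all interferon lists, the 10 genes most like the score in microglia were Cybb (0.50), Mndal (0.45), Ifi213 (0.39), Ms4a6b, Nrp1, H2-D1, Ms4a6c, Themis2, Ms4a7 and Milr1, and in endothelial cells Gm15427 (0.42), Tgtp2 (0.37), Tmx3, Atg12, Uba2, Ginm1, Flna, Tgtp1, Parva and Klhl5. Mndal and Ifi213 lie in the same family as the HIN200 members and may share reads with them.

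A subset of 13 strongly inducible members (Ifit1, Ifit2, Ifit3, Isg15, Rsad2, Usp18, Oasl2, Oas1a, Mx1, Mx2, Irf7, Rtp4 and Ifi44) was used to ask whether the same few cells hold the reads of these genes. Over cells, a score of these 13 correlated with a score of the other 26 members at 0.55 in microglia (Spearman). In endothelial cells the value was 0.44, and in both classes it was above that of any single pair of members. The part of depth in these correlations was not tested. A gene was counted as carried by a cell at 10 reads or more. In microglia 150 of 280 cells (53.6%) carried none of the 13, and in endothelial cells 32 of 111 (28.8%). At least 5 were carried by 13 microglia (4.64%, exact Clopper-Pearson interval 2.49 to 7.81%) and by 6 endothelial cells (5.41%, 2.01 to 11.4%). These intervals take cells as independent draws and leave out the spread between animals, so the classes cannot be compared by them.

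At the upper end no microglia carried 7 to 9 of the 13 genes and 4 carried 10 or more (1.43%, 0.391 to 3.62%): the cells in wells L19, N11 and N8 of plate A, with 12, 12 and 10 genes, and in well J3 of plate B, with 10. No endothelial cell carried more than 8, and 0 of 111 at 10 or more allows a share of up to 2.70% (3 of 111; exact upper limit 3.27%), above the microglial share. The gap depends on the 10 reads asked for: counting a gene from 1 read, 7 microglia carried 7 genes, 2 carried 8, 0 carried 9 and 4 carried 10 or more. When all cells with enough reads were thinned to 70000 reads (246 microglia), the same threshold was again met by 4 microglia. The 4 cells had 223541, 273820, 81586 and 159432 reads, against a class median of 146506, and module scores of 7.91, 7.89, 5.54 and 7.12.

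Ifit2, the clearest case, was at 1226 CPM in L19, 2458 in N11, 1287 in N8 and 7357 in J3, while only 41 of 280 microglia had any read of it. Mx1 was at 1118, 1486, 1373 and 684 CPM in the same order and Oasl2 at 3172, 1066, 1753 and 3613. Ifit1 was at 1906, 2939.9 and 2304 CPM in the 3 cells of plate A and at 0 in J3, whereas Isg15 was highest in J3, at 991 CPM, with 31.3 in L19, 201 in N11 and 0 in N8. Ifi44 was read in L19 alone, at 1901 CPM. The 4 cells thus differed in which of the inducible genes were read.

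The 4 cells held 1.55% of all microglial reads. Of the reads of the inducible genes, which were used to pick the cells, they held 93.8% for Ifi44, 71.0% for Ifit2, 65.4% for Ifit1, 61.8% for Isg15 and 55.3% for Rsad2. Of the 26 other members, which were not used, 3 had 20% or more of their reads in these cells (Gbp2 28.0%, Ifih1 23.3% and Gbp3 23.2%), and their median share was 7.45%. Over 13599 genes at 1 CPM or more the median share was 0 and 1.10% of genes reached 20%; with the inducible genes included 11 of 39 members did.

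Members read in 50% or more of microglia, of which there were 9 (Irf1, Irf2, Irf9, Ifitm2, Ifitm3, Bst2, Ifi27, Ifi27l2a and Ifi207), had between 0.264% and 7.55% of their reads in the 4 cells, with a median of 3.33%. For 4 of the 9 the share was below the cells' 1.55% of all reads: Ifitm2 (0.264%), Ifi27 (0.353%), Irf9 (0.700%) and Bst2 (1.37%). Ifitm2 was at 0 in L19, N11 and J3. Ifitm3, at 809.7, 895, 2905 and 1104 CPM in L19, N11, N8 and J3, was above the class median in each, and 4.08% of its reads lay there; for Ifi27l2a the share was 3.33% and for Ifi207 7.55%.

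A list of 50 other measured interferon-stimulated genes held neither members nor genes used to pick the cells. It does hold close copies of such genes, which may share reads with them and are not independent of the choice of cells. Among these, Ifit1bl2 had 88.9% of its microglial reads in the 4 cells, Ifit3b 68.7%, Oas1g 24.2% and Oas1b 4.93%. In 17 of the 50, 20% or more of the microglial reads came from the 4 cells, against 1.10% of all genes; the other genes of the list reached less, down to 0 for Gbp8. The chemokine Cxcl9, a target of interferon gamma, was read in 3 microglia, at 242 CPM in L19 and 1386 in J3, and 98.9% of its reads lay in the 4 cells. Cxcl10, a target of both interferon types, was at 5516, 2476 and 1907 CPM in L19, N11 and J3 and at 0 in N8, with 33.0% of its reads. Ccl5 was at 121 CPM in N11 and 1248 in J3, with 50.1%, and Oasl1 at 264, 792 and 3331 in L19, N11 and J3, with 56.6%. Cell N8 had no read of any of these 4 genes, which, like Gbp8, were named after their values were seen. All 19 microglial reads of Ifnb1, the gene of interferon beta, were in cell L19, at 85.0 CPM there.

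**Figure D4:**
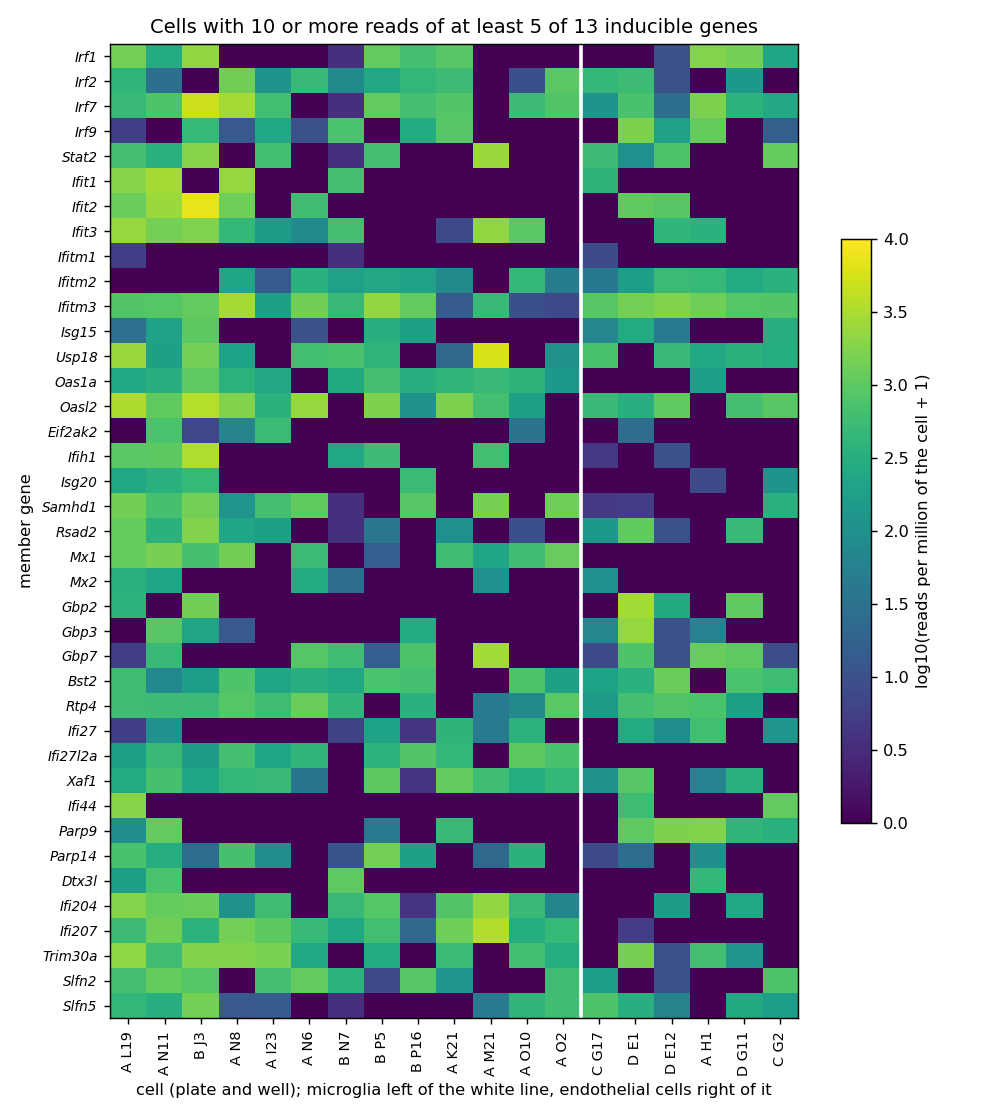
Level of the 39 members (rows) in the 13 microglia and 6 endothelial cells (columns, plate and well) that carry at least 5 of the 13 inducible genes at 10 reads, as log10(CPM of the cell + 1) in colour. Ifit, Oasl2, Mx1 and Rsad2 rows are bright in the 4 leftmost cells, except Ifit1 in J3, and the Mx1 row is dark in all endothelial cells.

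The 6 endothelial cells that carried at least 5 inducible genes differed among themselves, and none had a read of Mx1. Cell E1 of plate D, with 7 of the 13 genes and the highest endothelial score of 5.41, held Gbp2 at 2748 CPM, Gbp3 at 2316, Rsad2 at 1054 and Ifit2 at 1028, with Mx1, Ifit1, Ifit3 and Oas1a at 0. Cell G17 of plate C carried 8 of the 13, with Usp18 at 715 CPM, Oasl2 at 486 and Ifit1 at 394. Cell E12 of plate D had Oasl2 at 1013 CPM, Ifit2 at 925, Usp18 at 511 and Ifit3 at 423, and cell H1 of plate A Ifit3 at 355 and Oas1a at 170.3. These cells came from plates A, C and D, with 1, 2 and 3 cells.

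Markers of other cells were measured in the 4 microglia. The summed microglia markers stood at 39205 CPM in L19, 40311 in N11, 17429 in N8 and 40996 in J3, and the endothelial markers at 228, 449, 159 and 50.2, with 27896 as the endothelial median. N8 differed from the other 3 in its border-associated macrophage markers, at 13238 CPM against 174, 756 and 119, and had 625 CPM of dendritic cell markers. Lymphocyte markers were at 486 CPM in N11 and at 4.47 or 0 in the others, and neutrophil and neuron markers at 0 in all 4. Oligodendrocyte markers were at 796 CPM in L19, 573 in N11, 0 in N8 and 69.0 in J3, with a class median of 49.9, and astrocyte markers at 394 in L19, 588 in N8 and 0 in the other 2, with a class median of 0. The part of these transcripts in the interferon genes was not tested.

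Without the 4 cells, a setting chosen after seeing the data, the pooled levels of the inducible genes in microglia had to fall, since those genes picked the cells, so the values only show by how much. Ifit1 in microglia went from 45.7 to 16.0 CPM, against 20.9 in endothelial cells, and Ifit2 from 66.0 to 19.4, against 41.2, so that both turned from higher to lower in microglia. Trim30a also changed sides, from a log2 ratio of 0.16 to −0.06. The 7 members called higher in microglia kept that call, and Isg15, Gbp3 and Slfn5 joined Gbp2, Ifi44 and Rsad2 as 4-fold higher in endothelial cells, to 6 of 39. The median log2 ratio of the members went to −0.07.

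To see whether members differ within the microglia class, its cells were clustered after leaving out all listed interferon genes, which gave 4 clusters of 126, 67, 55 and 32 cells. They are kept by number. The leading genes of cluster 1 include Cd163 and Cbr2 of border macrophages, with Egfl7, which marks endothelial cells; cluster 2 is led by MHC class II genes such as H2-Ab1 and Cd74, cluster 3 by Slc2a5, Adgrg1 and Sall1, known from parenchymal microglia, and cluster 4 by genes such as Dpp4 and H2-DMb2, with low Csf1r at 597 CPM. Sall1 stood at 13.3, 1.05, 462 and 0.787 CPM in clusters 1 to 4, and P2ry12, a microglia marker, at 507, 460.3, 3360.5 and 42.2. Mrc1, a border-associated macrophage marker, stood at 3409.6, 1866, 68.6 and 638. Most cells of the class thus lay outside cluster 3, the one led by genes known from parenchymal microglia. The median module score was 2.07, 2.14, 1.06 and 2.03 in clusters 1 to 4. Cluster 3 was lowest in plate A (1.12, against 2.19, 2.21 and 2.51) and in plate B (1.01, against 1.86, 1.97 and 1.82), although its median of 198081 reads per cell was above that of clusters 1 and 2.

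Of the 9 members read in 50% or more of microglia, 5 were lowest in cluster 3, 2 in cluster 4 and 1 each in clusters 1 and 2. Ifitm3 stood at 516, 538, 65.8 and 627 CPM in clusters 1 to 4, and Ifitm2 at 196, 139, 9.39 and 223. Ifi27l2a was at 134, 322, 45.0 and 185 CPM, Ifi207 at 326, 169, 66.0 and 73.9, and Irf9 at 285, 239, 98.1 and 327. Bst2 was low in both cluster 3 and cluster 4, at 479, 591, 139 and 134. Irf1 was instead highest in cluster 3, at 265, 216, 336 and 123 CPM, Ifi27 was at 278, 66.1, 178 and 97.9, and Irf2 at 81.7, 107, 122 and 191. Ifitm2 was read in 15 of 55 cells of cluster 3, against 101 of 126, 50 of 67 and 29 of 32 cells of the others.

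Of the 13 inducible members, 7 had their highest pooled level in cluster 3, 3 each in clusters 1 and 2 and 0 in cluster 4, where 10 were lowest. Ifit1 stood at 40.2, 19.4, 110.3 and 0.131 CPM in clusters 1 to 4, Ifit2 at 38.7, 21.7, 197 and 0.524, Isg15 at 2.53, 0.285, 20.3 and 10.5, and Rsad2 at 25.3, 4.37, 57.3 and 1.70. Rtp4 was lowest in cluster 3, at 123, 107, 38.2 and 42.9, and Oas1a (77.9, 99.3, 32.5 and 28.4) and Oasl2 (293, 291, 159 and 9.70) were higher in clusters 1 and 2 than in 3. Cluster 3 holds 3 of the 4 cells with 10 or more inducible genes (L19, N11 and J3) and cluster 1 the other, N8. Without these 4 cells, which were picked for these genes, 0 of the 13 were highest in cluster 3. Of the 13, 6 were then lowest in cluster 3 and 6 in cluster 4. Ifit1 in cluster 3 went from 110.3 to 0.190 CPM, near the 0.131 of cluster 4. Ifit1 was read in only 4 of the 55 cells of cluster 3, against 13 of 126 in cluster 1. The cluster with the lowest median score thus held the highest score, 7.91.

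**Figure D5:**
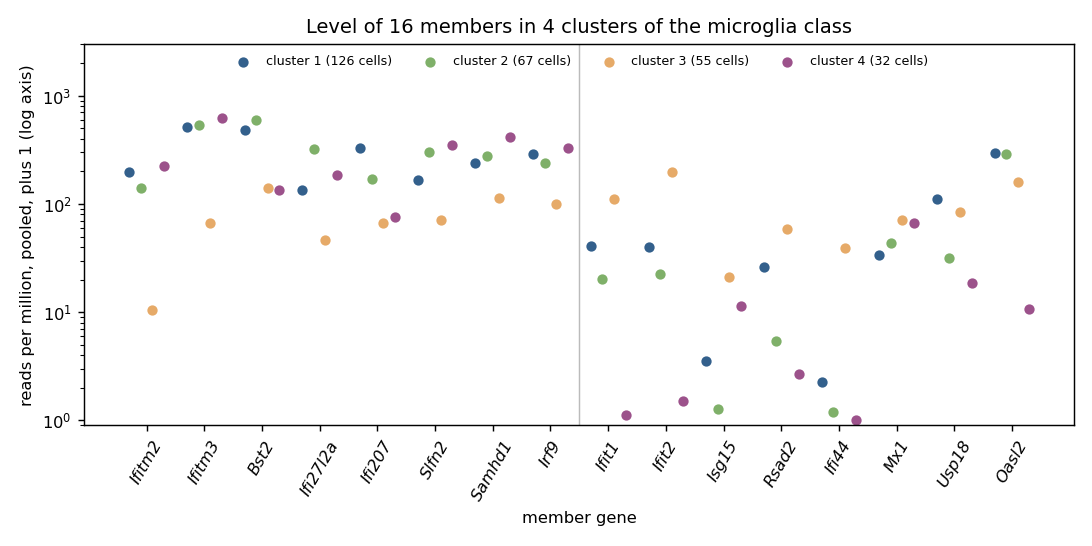
Pooled level in CPM plus 1 (vertical log axis) of 16 members in the 4 clusters of the microglia class, made without the listed interferon genes. Left of the line lie 8 members outside the inducible subset and right of it 8 of the subset. Cluster 3 has the lowest point for Ifitm2 (9.39 CPM) and Ifitm3 (65.8) and the highest for Ifit1 (110.3), Ifit2 (197), Rsad2 (57.3) and Ifi44 (38.3).

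The rest of the pathway was read from lists outside the 39 members, against the same background of 19.9% and 11.7% of genes. Of 20 interferon genes in the table none reached 1 CPM in either class; 17 had 0 reads in all cells, and the others were Ifnb1 with 19 reads and Ifng and Ifnl2 with 1 read each in endothelial cells. Of 9 measured receptor and kinase genes 1, Ifnar1, was 4-fold higher in microglia (185 and 42.5 CPM) and none in endothelial cells. Ifngr1 stood at 887 and 609 CPM, Ifngr2 at 272 and 133, Jak1 at 237 and 178 and Ifnar2 at 217 and 143.

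Of 7 genes listed as feedback inhibitors 1 was higher in microglia, the phosphatase Ptpn6 (568 and 0.889 CPM). Socs3, which blocks Jak kinases, stood at 657 and 309.9, Pias1 at 203 and 88.2 and Ptpn2 at 71.0 and 27.4. The list also holds Isg20l2, at 20.5 and 24.1 CPM, which is not a known inhibitor of the pathway. Of 4 other interferon regulatory factors measured, 3 were higher in microglia: the myeloid factors Irf8 (812 and 27.8 CPM), Irf5 (424 and 5.20) and Irf4 (67.8 and 0.0468). Irf3, which starts interferon beta transcription, was at 95.0 and 145. Of 13 sensors and adaptors 6 were higher in microglia, among them Sting1 (261 and 31.6 CPM), the adaptor of cytosolic DNA sensing, and Tlr7 (152 and 0.0468), an endosomal RNA sensor, while Mavs (94.3 and 74.7) and Rigi (42.6 and 86.3) were not. None of the 3 lists held a gene 4-fold higher in endothelial cells.

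Of the 50 other interferon-stimulated genes measured, 16 were higher in microglia and 4 in endothelial cells, with a median log2 ratio of 0.32. The 4 were Iigp1 (28.5 and 244 CPM) and Gbp4 (13.4 and 208), GTPases of defence inside the cell, Gbp5 (6.17 and 42.7) and Helz2 (1.77 and 126). The list's highest CPM was that of Ly6e, a membrane protein that restricts viral entry, at 1406 and 2564 CPM and read in 279 of 280 and 111 of 111 cells. Lgals3bp stood at 685 and 462 CPM, the nuclear body protein Sp100 at 184 and 333 and the immunoproteasome subunit Psmb8 at 299 and 279. Ly6e, Ifitm2 and Ifitm3 were thus broadly read and higher in endothelial cells when pooled.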

How the data were processed

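The authors deposited raw read counts for 56941 genes in 391 cells, made, per the submitters' processing notes, on GRCm39 with featureCounts, Subread 1.4.6-p5 and SAMtools 1.16.1. Aligner, annotation, strand use and multiply mapped reads were not given in the sources used here, so close copies (Ifit3 and Ifit3b, the Oas1, Gbp and HIN200 families) and overlapping genes are uncertain. Each column was matched to its class through a deposited cell table, and 0 columns were left out. No cell filter or doublet caller was applied.

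Reads were summed per class and divided by all gene reads (CPM), with exact Poisson intervals for levels and conditional binomial intervals for ratios, at 95%. Each class is 1 sample, since no label names an animal, so no test was run. Calls needed 1 CPM in either class and 4-fold on log2(CPM + 1), which understates ratios of low genes; a class at 0 was set to 3 reads. Exon lengths for levels per kilobase came from GENCODE M21. Clusters used scanpy 1.11.5 (2000 variable genes, 20 components, 15 neighbours, Leiden at 0.5). Other tools were Python 3.11.15, numpy 2.4.6, scipy 1.17.1 and pandas 2.3.3. The interval code was tested on simulated data.

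The named genes are all members, the 4 highest of each other interferon list, and the 10 genes per class most like the score among those read in 20% of cells. Members and lists were chosen with earlier results of these data known.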

Additional observations from a re-analysis of the deposited data

How the results depend on the processing

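Of 48 alternative values 13 moved, that is, a count by over 1.5 times, or a median beyond the 95% order-statistic interval of the values it is taken over. Within plate A the members higher in microglia were 16, and within plate B 17, with median log2 ratios of 1.05 and 1.23 in place of 0.16; the plates hold few endothelial cells. Without the 5% of cells of highest score the members higher in endothelial cells were 5 and the median log2 ratio was −0.02, and without the 4 microglia, an alternative added after seeing the data, they were 6 and −0.07. The module score difference, microglia minus endothelial cells, was −0.18 and changed sign within plate A (0.16), with −0.43 within plate B. The score differences within plates and the median log2 ratios of 1.05, −0.02 and −0.07 did not count as moved. With a filter at 10 CPM 15 of 30 members were concentrated in endothelial cells. Cells with 5 or more inducible genes numbered 33 microglia and 13 endothelial cells at 1 read, 6 and 1 at 50 reads, and 44 and 17 where 3 of 13 genes were enough. Without the 4 microglia, the inducible members highest in cluster 3 went from 7 to 0. No paired analysis was possible because no label ties cells of the classes to a shared animal or replicate. Without molecular identifiers depth gives counting error only, and absence of a read in a cell does not show absence of the transcript.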
